A study of Rattus norvegicus with 12 samples.

Results

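The genes described here are the immediate-early transcription factor genes of the AP-1, EGR and NR4A families, measured in neonatal rat cardiomyocytes that were exposed to DEHP. The 10 genes listed were Fos, Fosb, Fosl1, Jun, Junb, Egr1, Egr3, Nr4a1, Nr4a2 and Nr4a3, and a probe set counted as a gene's own where the platform annotation gave it exactly 1 symbol. By that rule 9 of the 10 had 1 probe set each, among 14324 named genes, and Fosb was not analysed here. Hearts of 2-day-old Sprague-Dawley rats gave the cells, which were plated on coverslips, grown for 3 days and then treated for 3 days. The control group received the vehicle, 0.1% DMSO, and the DEHP group received 50 µg/mL DEHP in 0.1% DMSO, so DMSO was common to both. DEHP is a phthalate ester added to soften PVC, from which it can migrate. Each group had 6 cultures with 1 array each, all from the same litter, so the spread given here is that between cultures and not between litters. All RNA was collected at a single time, 3 days into treatment, so each value is a level in cultures under long exposure and not a burst after a stimulus.

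Immediate-early genes are transcribed within minutes of a stimulus, without new protein synthesis, when kinases act on factors already bound at their promoters. FOS and JUN proteins carry basic leucine zippers and pair to form AP-1, EGR proteins bind DNA through zinc fingers, and NR4A proteins are orphan nuclear receptors whose activity depends mainly on how much of them is made. In heart muscle cells Fos, Jun and Egr1 are known for their induction by stretch, catecholamines and endothelin, and the NR4A genes for their induction by beta-adrenergic and cyclic AMP signals.

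Promoter sequences were in the RefSeq table (build GRCr8) for 5 of the 9 measured genes, Fosl1, Junb, Egr1, Nr4a1 and Nr4a2. The 250 bases before the transcript start are shown for Nr4a2 and Nr4a1, which fell the most of these, for Junb, which fell by less, and for Fosl1, which did not pass the test. Capitals mark every match to the motifs searched on both strands, which were the cyclic AMP element TGACGTCA, its half-site TGACG, the related letters TGCGTCA, the AP-1 site TGANTCA, the EGR site GCGNGGGCG, the NR4A element AAAGGTCA and the CArG box of serum response factor. The last letters of TGCGTCA are the half-site read on the other strand, so these 2 motifs overlap. The windows lie at chr7:134259888-134260137 on the plus strand for Nr4a1, chr3:62104888-62105137 on the minus strand for Nr4a2, chr19:40080876-40081125 on the plus strand for Junb and chr1:212183635-212183884 on the plus strand for Fosl1. Those of Nr4a1 and Nr4a2 begin at a start inside the annotated gene span, so other starts of these genes lie outside them.
Nr4a1: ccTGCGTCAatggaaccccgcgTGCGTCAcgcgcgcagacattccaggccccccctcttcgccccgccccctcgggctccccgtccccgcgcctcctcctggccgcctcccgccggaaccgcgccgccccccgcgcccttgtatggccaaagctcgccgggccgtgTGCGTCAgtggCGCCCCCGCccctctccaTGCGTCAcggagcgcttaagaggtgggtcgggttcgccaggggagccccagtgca
Nr4a2: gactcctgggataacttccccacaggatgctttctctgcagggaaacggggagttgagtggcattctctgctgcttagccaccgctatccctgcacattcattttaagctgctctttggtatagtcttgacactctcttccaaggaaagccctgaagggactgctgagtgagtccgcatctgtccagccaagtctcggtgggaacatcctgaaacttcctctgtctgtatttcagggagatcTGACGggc
Junb: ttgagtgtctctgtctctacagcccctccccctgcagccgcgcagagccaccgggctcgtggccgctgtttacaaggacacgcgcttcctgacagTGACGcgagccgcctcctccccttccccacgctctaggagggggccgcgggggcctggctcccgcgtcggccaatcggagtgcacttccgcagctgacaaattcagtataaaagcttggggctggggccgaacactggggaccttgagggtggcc
Fosl1: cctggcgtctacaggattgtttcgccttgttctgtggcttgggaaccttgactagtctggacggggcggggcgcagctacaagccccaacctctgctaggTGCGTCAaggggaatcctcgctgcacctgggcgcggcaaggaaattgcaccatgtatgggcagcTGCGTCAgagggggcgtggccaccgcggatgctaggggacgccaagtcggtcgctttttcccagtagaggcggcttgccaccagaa

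The Nr4a1 window held TGCGTCA at 4 places, with first bases at −248, −228, −84 and −55 from the start, and 1 match to the EGR site at −73. Of 27457 windows of the same length, 1.84% held TGCGTCA at least once, 0.058% held it at least 2 times, and 1 window, that of Nr4a1, held it 4 times. The Fosl1 window held it 2 times, at −150 and −86. The Egr1 window, not printed, held 2 CArG boxes, at −105 and −83, against 1.5% of windows with at least 1, and 2 half-sites TGACG, at −135 and −66. Junb and Nr4a2 each had 1 half-site and no other match, and 19% of windows had a half-site. These matches describe letters only, and the genes with and without them are too few for a comparison with the expression values. The motifs were not part of the plan of tests. The shares over all windows are therefore no measure of how unusual the Nr4a1 window is.

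Control replicate 5 and DEHP replicate 6 stood apart over all probe sets, since their log2 ratios had SDs of 0.37 and 0.27 while the SDs of the remaining 10 arrays were 0.15 to 0.19.

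The NR4A genes were lower under DEHP, each by a clear margin, while the FOS, JUN and EGR genes differed by less. Of the 9 measured genes, 7 fell, 1 rose and 1 did not pass in limma's moderated test with Benjamini-Hochberg adjustment over all probe sets (adjusted p under 0.05). Over all named genes 10.2% fell and 14.4% rose by the same test, 24.6% in all. The members' median log2 fold was −0.30, and that of all named genes −0.02. The groups did not overlap in 5 of the 9 genes, Fos, Junb, Nr4a1, Nr4a2 and Nr4a3, against 16.9% of all named genes. Without Control replicate 5 and DEHP replicate 6 together, the same 7 genes fell and Jun again rose, with log2 folds of −1.62 for Nr4a2, −1.25 for Nr4a3, −0.86 for Nr4a1, −0.46 for Egr3, −0.29 for Fos, −0.26 for Junb, −0.21 for Egr1 and 0.23 for Jun (limma adjusted p from 5.35e-08 to 0.0357, n = 5 per group). Values below are log2 ratios to each gene's median over the 12 arrays, as the deposited file is scaled, so 0 is that median and levels cannot be compared between genes. That scaling also makes the lowest control and the highest DEHP value mirror images for a gene that fell without overlap. In RNA from whole cultures, fewer cells of a type and less RNA per cell cannot be told apart.

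Nr4a2 had the largest fall of the 9. This orphan receptor gene is best known from dopamine neurons and is also induced in muscle and heart. In controls its log2 ratio ran from 0.34 to 0.61 with a median of 0.41, and under DEHP from −1.35 to −0.34 with a median of −1.15. All control cultures lay above all DEHP cultures, and DEHP replicate 6, at −0.34, was well above the other DEHP cultures, which ended at −0.93. The log2 fold was −1.46 ± 0.14 (SE, n = 6 per group, limma adjusted p = 9.11e-06), a 2.76-fold fall, and 0.265% of all named genes had a lower log2 fold.

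Nr4a3 had the smallest spread of the 3 NR4A genes under DEHP (SD 0.105) and the largest in controls (SD 0.138). It encodes an NR4A receptor that, with Nr4a1, is induced in muscle by exercise and beta-adrenergic signals. Control values ran from 0.52 to 0.86 (median 0.59) and DEHP values from −0.80 to −0.52 (median −0.59). The groups lay on opposite sides of 0 without overlap. The log2 fold was −1.26 ± 0.07 (SE, n = 6 per group, limma adjusted p = 9.08e-08), a 2.40-fold fall.

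Nr4a1, the founding member of the family, is induced by growth factors and calcium as well as cyclic AMP. It ran from 0.28 to 0.66 in controls (median 0.46) and from −0.71 to −0.28 under DEHP (median −0.39). The groups again did not overlap, and here DEHP replicate 6 was the lowest culture. The log2 fold was −0.90 ± 0.08 (SE, n = 6 per group, limma adjusted p = 2.86e-06), a 1.87-fold fall. Nr4a2 and Nr4a3 fell at least 2-fold, as did 0.901% of all named genes.

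**Figure D1:**
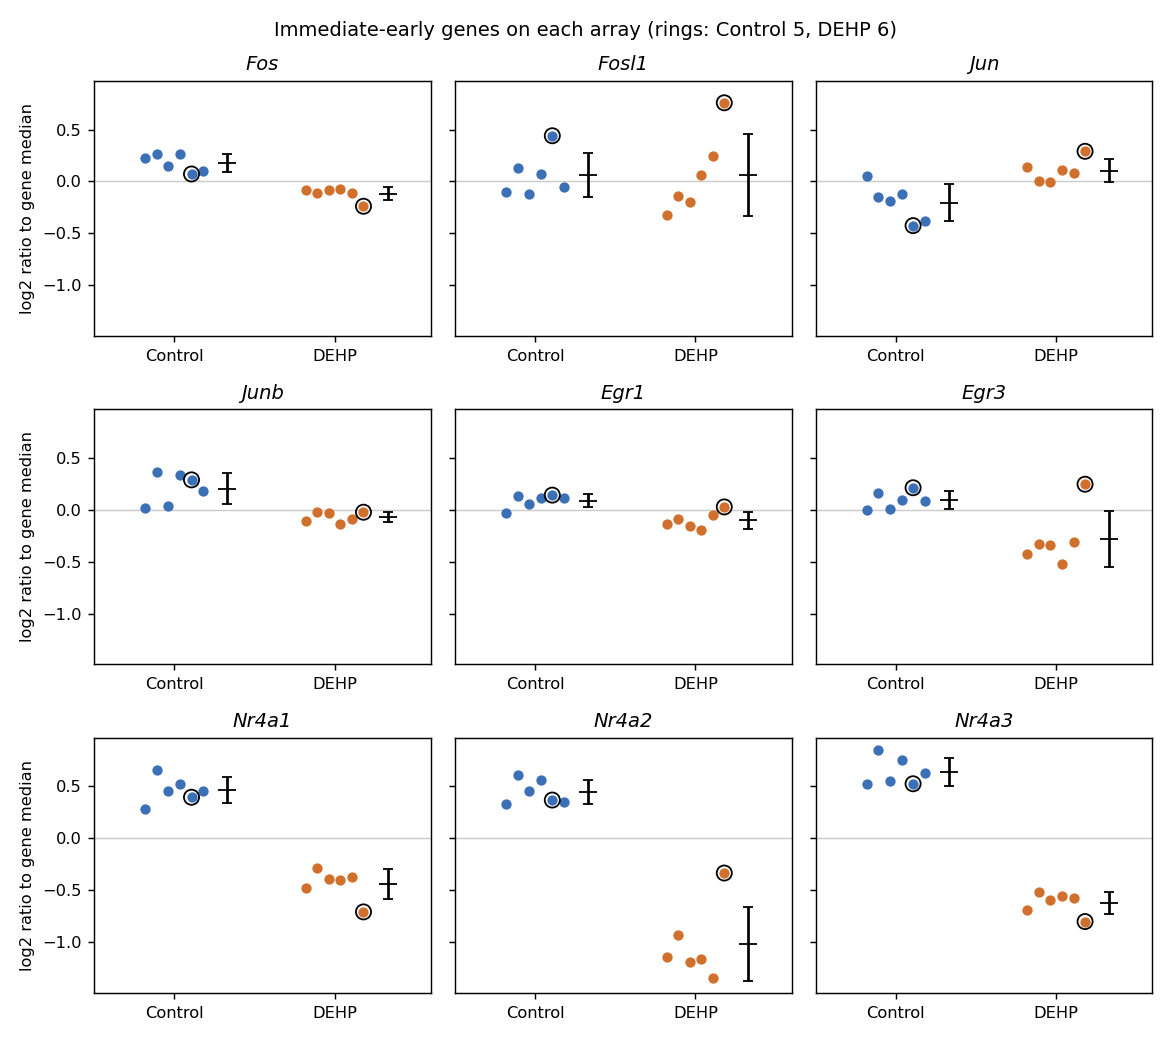
Log2 ratio to the gene's median over the 12 arrays (vertical axis) for each of the 9 measured genes, with 1 point per culture in the control (blue) and DEHP (orange) groups, and the mean with SD as a black bar. Rings mark Control replicate 5 and DEHP replicate 6; the groups lie fully apart in Fos, Junb and the NR4A genes, and the Egr3 value of 0.25 in DEHP replicate 6 lies above all its controls.

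Among the AP-1 genes, Fos and Junb fell a little, Jun rose, and Fosl1 did not pass. Fos, whose protein needs a JUN partner to bind DNA, ran from 0.07 to 0.26 in controls (median 0.19) and from −0.24 to −0.07 under DEHP (median −0.10). All 6 controls were above all 6 DEHP cultures, with DEHP replicate 6 the lowest. Its log2 fold was −0.30 ± 0.05 (SE, n = 6 per group, limma adjusted p = 0.000468), a 1.23-fold fall.

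Junb encodes a JUN protein that is a weaker activator than JUN and can oppose it. Its values ran from 0.02 to 0.36 in controls (median 0.23) and from −0.13 to −0.02 under DEHP (median −0.06). The groups met without overlap, with controls 1 and 3 near the DEHP cultures. The log2 fold was −0.27 ± 0.06 (SE, n = 6 per group, limma adjusted p = 0.00843).

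Jun encodes the AP-1 subunit that can pair with itself as well as with FOS proteins, and it went the other way. Controls ran from −0.43 to 0.05 (median −0.17) and DEHP cultures from −0.01 to 0.29 (median 0.09). Control replicate 1 lay among the DEHP cultures and the other controls lay below all of them. The log2 fold was 0.31 ± 0.08 (SE, n = 6 per group, limma adjusted p = 0.016), a 1.24-fold rise.

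Fosl1 encodes a FOS family protein without the strong activation domain of FOS, usually induced later. Its controls ran from −0.12 to 0.44 (median 0.005) and its DEHP cultures from −0.33 to 0.76 (median −0.04). The highest value of each group came from Control replicate 5 and DEHP replicate 6. The log2 fold was 0.01 ± 0.17 (SE, n = 6 per group, limma adjusted p = 0.985), with a 95% interval from −0.35 to 0.37, and it was −0.13 without DEHP replicate 6, so this gene is given no direction.

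Both EGR genes were lower, with some overlap between the groups. Egr1, a zinc finger factor switched on by stretch and growth factors, ran from −0.03 to 0.14 in controls (median 0.12) and from −0.20 to 0.03 under DEHP (median −0.12). Control replicate 1 and DEHP replicate 6 were the cultures that crossed. The log2 fold of −0.19 ± 0.05 (SE, n = 6 per group, limma adjusted p = 0.00943) is a 1.14-fold fall, the smallest of the 7.

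Egr3, a relative that EGR1 and NFAT factors can induce, ran from −0.01 to 0.21 in controls (median 0.09) and from −0.52 to 0.25 under DEHP (median −0.34). Of the DEHP cultures 5 lay between −0.52 and −0.31, below every control, and replicate 6 lay above every control. Its log2 fold was −0.37 ± 0.11 (SE, n = 6 per group, limma adjusted p = 0.0272). Without DEHP replicate 6 it was −0.48 with an adjusted p of 4.92e-05, but leaving out Control replicate 2 or 4, or DEHP replicate 1, 2, 3 or 4, gave log2 folds from −0.37 to −0.33 with limma adjusted p from 0.0515 to 0.0652, above the 0.05 threshold with a fold about as large.

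Within a family the log2 folds, each from 1 probe set, were not all of the same size. For each of 6 pairs the log2 ratio of one gene minus that of the other was compared between groups. The test was a two-sided exact permutation test over all 924 splits of the arrays, adjusted over the 6 pairs. The 95% intervals of these differences came from a t distribution with the variance pooled over both groups, not from that test. Nr4a1 fell less than Nr4a3 by 0.36 on the log2 scale (95% interval 0.29 to 0.43, exact p = 0.00216, the smallest this test can give, adjusted p = 0.013). The difference between these genes lay between −0.24 and −0.09 in all controls and between 0.09 and 0.24 in all DEHP cultures. Each gene is scaled to its own median, so the gap between the groups is informative here and the sign is not. Jun and Junb differed by 0.58 (0.31 to 0.85, exact p = 0.00649, adjusted p = 0.0195).

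Nr4a1 fell less than Nr4a2 by 0.56 (95% interval 0.12 to 1.004, exact permutation p = 0.0152, adjusted p = 0.0303). The SD of Nr4a1 minus Nr4a2 was 0.06 in controls and 0.48 under DEHP, so pooling the variance fits this pair poorly. With 1 array left out the adjusted exact p was between 0.0606 and 0.0952 in 11 of 12 cases, and 0.00325 without DEHP replicate 6, where the difference was 0.75. Nr4a2 and Nr4a3 differed by −0.20 (−0.61 to 0.21, adjusted exact p = 0.318), which became −0.37 without DEHP replicate 6 (adjusted exact p = 0.00325). Egr1 and Egr3 differed by 0.18 (−0.01 to 0.37, adjusted exact p = 0.0844), and by 0.26 without that culture (adjusted exact p = 0.00325). Fos and Fosl1 differed by −0.30 (−0.77 to 0.17, adjusted exact p = 0.213). Differences between genes of different families were not tested. Their 95% intervals from limma, side by side, were −1.07 to −0.74 for Nr4a1, −1.41 to −1.12 for Nr4a3, −1.77 to −1.16 for Nr4a2, −0.40 to −0.20 for Fos and −0.61 to −0.14 for Egr3.

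**Figure D2:**
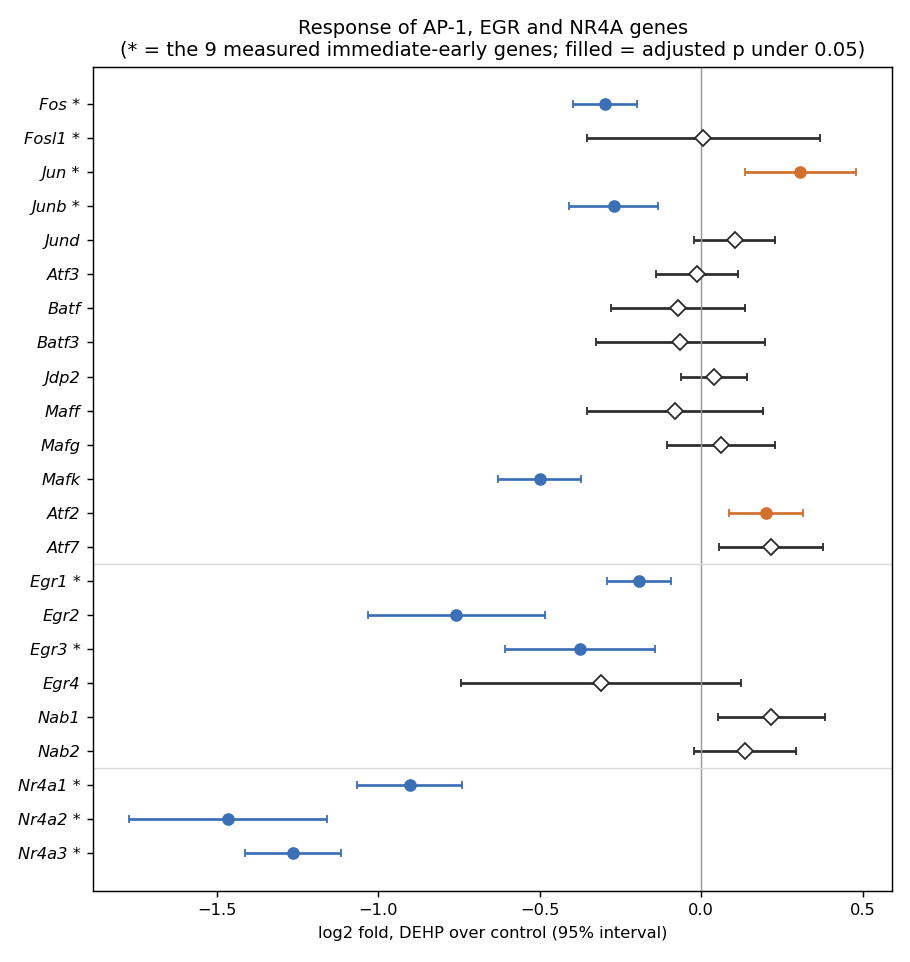
Log2 fold of DEHP over control (horizontal axis) with its 95% interval from limma, for the 9 measured genes (starred) and the other AP-1, EGR and NAB genes of the fixed lists. Filled circles passed at an adjusted p under 0.05 (blue lower, orange higher) and open diamonds did not. The point values of the NR4A genes, from −1.46 to −0.90, lie to the left of every other gene shown. The next is Egr2 at −0.76, whose interval, −1.03 to −0.48, overlaps that of Nr4a1, −1.07 to −0.74.

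Of 10 measured AP-1 relatives, other partners of FOS and JUN, 1 fell, 1 rose and 8 did not pass, with a median log2 fold of 0.01. Over all named genes 10.2% fell and 14.4% rose, so these shares are near the background. Mafk, a small MAF protein that also pairs with the antioxidant factor NRF2, fell by 0.50 on the log2 scale (−0.50 ± 0.06, limma adjusted p = 5.34e-05), from a control range of 0.08 to 0.45 to a DEHP range of −0.32 to −0.08. Atf2, a CREB-like partner of JUN that stress kinases phosphorylate, rose (0.20 ± 0.05, limma adjusted p = 0.0173). Atf7, a close relative of Atf2, was at 0.22 ± 0.07 with a limma adjusted p of 0.0633. Among the 4 EGR relatives, 1 fell, 0 rose and 3 did not pass. That fall was in Egr2, which acts in Schwann cells and in lymphocytes. Its control values ran from 0.01 to 0.19, those of 5 DEHP cultures from −0.93 to −0.61, and that of DEHP replicate 6 was −0.01. The log2 fold of Egr2 was −0.76 ± 0.13 (limma adjusted p = 0.000868). The corepressor genes Nab1 (0.22 ± 0.08) and Nab2 (0.14 ± 0.07) had limma adjusted p of 0.0685 and 0.253.

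Of 11 transcription factors that act on immediate-early promoters, 3 fell, 1 rose and 7 did not pass, with a median log2 fold of 0.08. These are 27.3% lower and 9.09% higher, beside 10.2% and 14.4% over all named genes. Srf encodes the serum response factor, which binds the CArG box. Its log2 ratio ran from 0.03 to 0.35 in controls and from −0.46 to −0.03 under DEHP, a log2 fold of −0.36 ± 0.07 (limma adjusted p = 0.00323). Myocd, the myocardin partner of SRF in heart and smooth muscle, fell by a similar amount (−0.39 ± 0.06, limma adjusted p = 0.000333), also without overlap. Elk1, a kinase-activated partner of SRF at immediate-early promoters, rose (0.24 ± 0.05, limma adjusted p = 0.00359). The third fall, named after the values were seen, was that of Crem (−0.38 ± 0.09, limma adjusted p = 0.0135), a cyclic AMP responsive factor gene with both activator and repressor products.

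Of 11 genes of the MAP kinase cascades 1 fell, 1 rose and 9 did not pass (median log2 fold 0.12), or 9.09% in each direction beside 10.2% lower and 14.4% higher over all named genes. Rps6ka5, a kinase that phosphorylates CREB and histone H3 at immediate-early genes, rose (0.44 ± 0.09, limma adjusted p = 0.00388). Map2k1, the kinase that activates ERK, fell by 0.17 on the log2 scale (−0.17 ± 0.04, limma adjusted p = 0.00945). Map2k6, which activates p38, was at 0.33 ± 0.12 with a limma adjusted p of 0.0815. RNA levels do not measure the activity of these kinases. In this list and in the upstream factors, Control replicate 5 had the lowest mean log2 ratio, at −0.32 and −0.24, against −0.08 and 0.02 in the next lowest control.

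Of 27 other immediate-early genes 9 fell, 5 rose and 13 did not pass, which is 33.3% lower and 18.5% higher beside the 10.2% and 14.4% over all named genes. Ccn1, a matricellular protein gene and target of SRF and YAP, ran from 0.17 to 0.31 in controls and from −0.25 to −0.17 under DEHP. Its log2 fold was −0.43 ± 0.03 (limma adjusted p = 2.29e-06). Dusp1, whose phosphatase switches off MAP kinases, fell by 0.37 on the log2 scale (−0.37 ± 0.03, limma adjusted p = 3.09e-06), with controls from 0.14 to 0.24 and DEHP cultures from −0.22 to −0.14. Phlda1 fell further (−0.81 ± 0.10, limma adjusted p = 7.10e-05). In Ccn1 and Dusp1 the spread within each group was under 0.06 (SD, n = 6), smaller than in any NR4A gene. The 5 that rose, also named after their values were seen, were Gem, Klf10, Sgk1, Ier5 and Trib1, with log2 folds from 0.21 in Ier5 to 0.54 in Klf10.

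**Figure D3:**
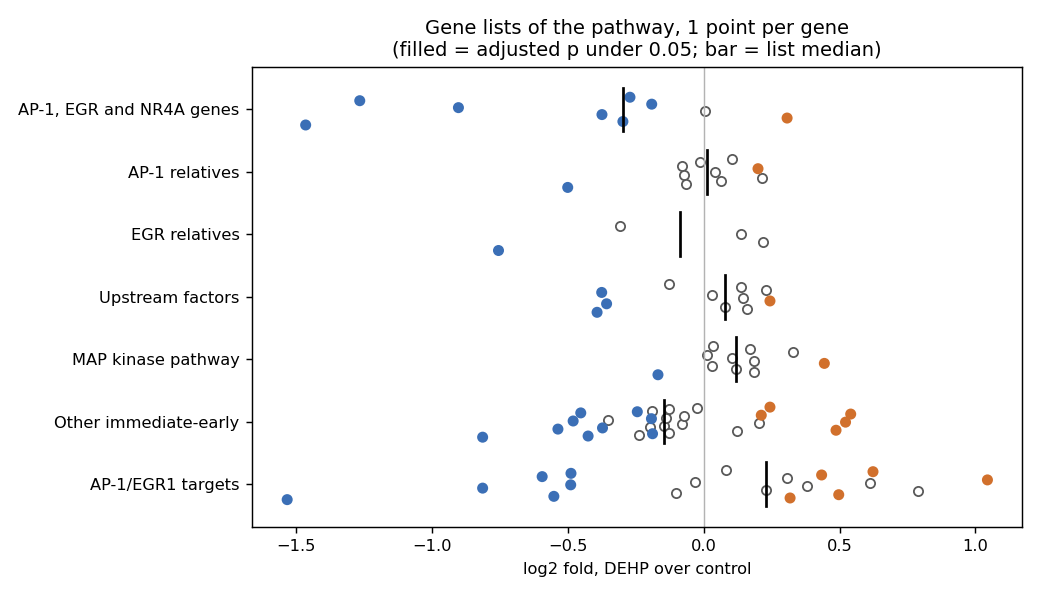
Log2 fold of DEHP over control (horizontal axis), 1 point per gene, for the 9 measured genes and 6 related lists (rows), with filled points at an adjusted p under 0.05 (blue lower, orange higher), open points otherwise and a black bar at each list's median. The medians run from −0.30 for the AP-1, EGR and NR4A genes to 0.23 for the AP-1 and EGR1 targets.

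Textbook targets of AP-1 or EGR1 went both ways, with 6 of 19 lower, 5 higher and 8 not passing (median log2 fold 0.23). Lower genes made up 31.6% and higher genes 26.3%, against 10.2% and 14.4% over all named genes. Hbegf, whose product is an EGF receptor ligand, ran from 0.67 to 0.82 in controls and from −0.88 to −0.67 under DEHP, a log2 fold of −1.53 ± 0.05 (limma adjusted p = 1.23e-09). Pdgfa, which encodes a platelet-derived growth factor chain and is an EGR1 target, fell (−0.59 ± 0.04, limma adjusted p = 9.04e-07). Ccnd1, the cyclin D1 gene, fell by a like amount (−0.55 ± 0.04, limma adjusted p = 2.15e-06). Averaged over these 19 genes, the log2 ratio reached 0.31 in DEHP replicate 6 and stayed between −0.05 and 0.07 in the remaining cultures of that group. The 5 that rose, named after their values were seen, were Vegfa, Timp1, Mmp9, Hmox1 and Pdgfb, with log2 folds from 0.32 in Pdgfb to 1.04 in Mmp9, a matrix metalloproteinase gene. Many factors other than AP-1 and EGR1 act on these genes.

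Cultures of 1 group differed among themselves, and the 9 genes did not vary as one. Each gene's deviations from its group mean were correlated over the 12 arrays, as a description. Nr4a1 and Nr4a3 went together, at r = 0.92 over all 12 arrays, 0.91 in the 6 controls and 0.97 in the 6 DEHP cultures. Egr1 and Egr3 had r = 0.83. Nr4a2 did not follow its relatives in this measure, with r = −0.37 to Nr4a1 and −0.19 to Nr4a3, but in the 6 controls both values were 0.89. In the 6 DEHP cultures they were −0.76 and −0.70. Within that group replicate 6 had the highest Nr4a2, Egr3, Egr1, Fosl1 and Jun and the lowest Fos, Nr4a1 and Nr4a3. Over the 10 arrays without Control replicate 5 and DEHP replicate 6, Nr4a2 had r = 0.66 to Nr4a1 and 0.61 to Nr4a3, and Junb had r = 0.82 and 0.89 to them. Jun was at −0.44 to Nr4a1 in both sets of arrays. Points in these correlations share array-wide effects such as hybridization.

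**Figure D4:**
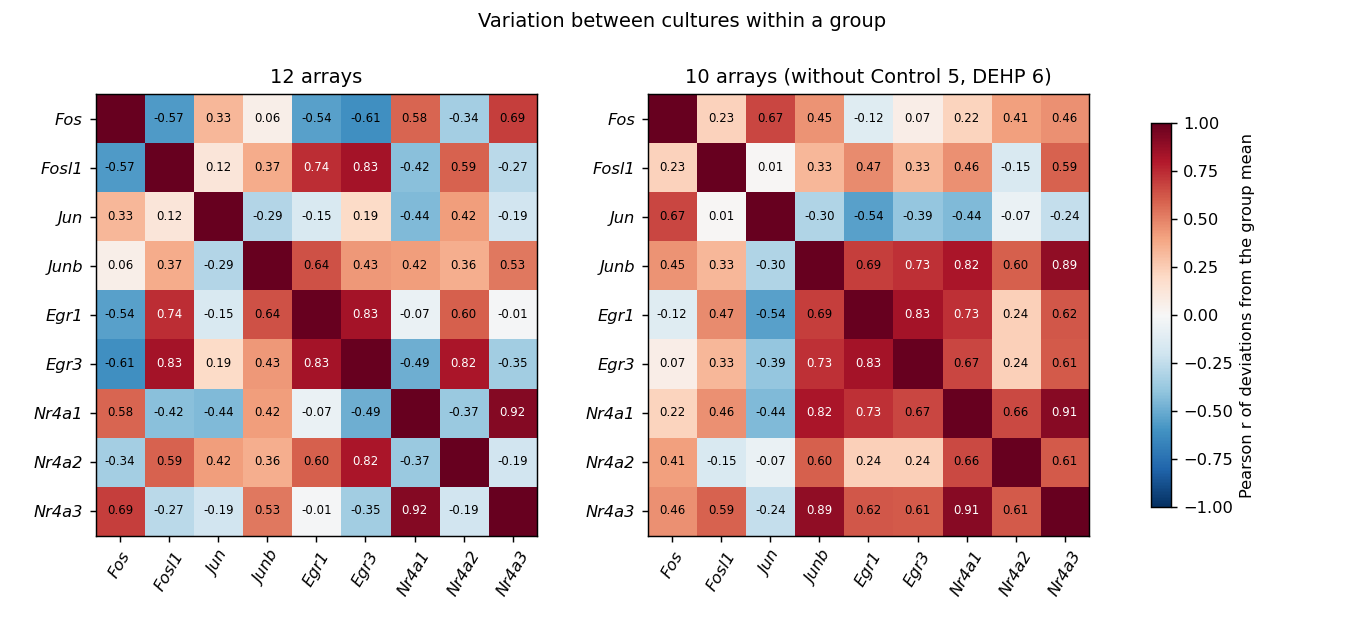
Pearson r between genes of their deviations from the group mean, over all 12 arrays (left) and over the 10 arrays without Control replicate 5 and DEHP replicate 6 (right), with red for positive and blue for negative values. Nr4a1 and Nr4a3 keep r above 0.9 in both panels, while Nr4a2 turns from −0.37 to 0.66 with Nr4a1.

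By the same measure the genes outside the set with the pattern most like each of 3 members were named. Closest to Nr4a1 were Sik1, a salt-inducible kinase gene that is itself in the list of other immediate-early genes (r = 0.939), Rasd1, which encodes a small GTPase induced by glucocorticoids (r = 0.913), and Pcsk5, a proprotein convertase gene (r = 0.908). Of these, Pcsk5 rose under DEHP (0.69 ± 0.10, limma adjusted p = 0.000376). Sik1 at −0.14 ± 0.08 and Rasd1 at 0.31 ± 0.14 did not pass (limma adjusted p = 0.262 and 0.152). Differences between their responses and that of Nr4a1 were not tested. Closest to Fos were P3h1 (r = 0.942) and Plod1 (r = 0.916), both enzymes of collagen modification, and Rnf144a, a ubiquitin ligase gene (r = 0.917). Their log2 folds were −0.20 ± 0.07, 0.14 ± 0.06 and −0.10 ± 0.10, with limma adjusted p of 0.0506, 0.157 and 0.567. Closest to Egr1 were Npb, a neuropeptide gene (r = 0.92), Dffa, which encodes an inhibitor of an apoptotic nuclease (r = 0.902), and Mettl27 (r = 0.88). None of these 3 passed limma, with adjusted p of 0.115, 0.857 and 0.565. Each r stood between 0.78 and 0.92 without Control replicate 5 and DEHP replicate 6. The genes were picked for the highest r among all other named genes, so high values follow from the picking. The arrays left in were also used to pick them, so the second r is no separate check.

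Ratios to a median hold no level, so the cardiomyocyte label could not be checked by the presence of its markers, and only their differences were seen. Of 12 cardiomyocyte markers 3 fell (25%), 4 rose (33.3%) and 5 did not pass, beside 10.2% lower and 14.4% higher over all named genes. Their mean log2 ratio ran from −0.15 to 0.04 in controls and from −0.28 to 0.26 under DEHP. All 6 measured markers of smooth muscle cells and myofibroblasts fell. Acta2 and Synpo2, also on that list, had no probe set with exactly 1 symbol. The mean log2 ratio of the 6 was 0.71 to 0.87 in controls and −1.40 to −0.69 under DEHP, and DEHP replicate 6 was the lowest. Of 10 fibroblast markers 5 fell and 3 rose (50% and 30%). Their means ran from −0.07 to 0.13 in controls and from −0.30 to −0.04 under DEHP. Of 7 measured endothelial markers 1 fell and 3 rose (14.3% and 42.9%), with means of −0.26 to 0.09 and −0.28 to 0.38. Of 9 measured leukocyte markers 1 fell and 3 rose (11.1% and 33.3%), with means of −0.28 to 0.12 and −0.11 to 0.17. The smooth muscle markers and 7 of the 9 genes fell between the same groups of cultures. In DEHP replicate 6, where those markers were lowest, Fos, Nr4a1 and Nr4a3 were also the lowest of their group. Nr4a2, Egr1 and Egr3 were the highest of their group there, and Junb was neither. The part of the markers' fall in the values of the 9 genes was not tested.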

How the data were processed

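RNA of 12 cultures, 6 per group, was measured on Affymetrix arrays, 1 per culture. RMA is the tool named, without a version, per the submitters' processing notes. The deposited table holds a linear ratio for each probe set and array, and the median log2 ratio of each of the 27342 probe sets over the 12 arrays lay within 1e-06 of 0. Expression level is not held in them, and the number of arrays limits the precision. Log2 of the ratio was used with no further normalization. The platform annotation gave 1 symbol to 15097 probe sets, several to 323 and none to 11922, and 15067 of the first had their Entrez identifier in a RefSeq table (GRCr8), which changed 0 symbols. A gene with several probe sets took the lowest-numbered one.

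DEHP was compared with control by limma 3.58.1 (R 4.3.3, lmFit and eBayes, two-sided, n = 6 per group), adjusted over all probe sets, after a check on simulated data. Log2 folds are ± SE. The genes, lists, tests and alternatives were chosen with earlier results of these data known. The text names all measured members, the 3 genes with the smallest p of each related list, and the 3 genes that vary most like Fos, Egr1 and Nr4a1. Replicate numbers were not taken as pairs. Alternatives were quantile normalization, median centring, array weights, robust eBayes, a replicate block, mean probe sets, named probe sets alone, a minimum fold of 1.2, an adjusted p under 0.01, an exact permutation test, each array left out, and Control 5 and DEHP 6 left out together. The last was chosen with earlier results known, and leaving out each array in the gene pairs after seeing the data. Motifs were searched in Python 3.11.15.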

Additional observations from a re-analysis of the deposited data

Results flagged for a closer look

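In 13 of 82 groups of 6 cultures checked, 1 culture lay far from the other 5 by Dixon's criterion. Chance alone meets it in about 1 in 20 groups taken singly, but these groups share the same 12 arrays. Some are of genes picked by their variation in these data, so the count cannot be set against that rate. DEHP replicate 6 was the outlying culture in 12 of the 13. Its Fos value of −0.24 lay below the −0.11 to −0.07 of the other DEHP cultures, and its Egr3 value of 0.25 above their −0.52 to −0.31. Egr2 was at −0.007 there against −0.93 to −0.61, and Atf2 at 0.25 against 0.02 to 0.09. Among the genes that vary like Fos, Egr1 or Nr4a1, it had −0.50 for Rnf144a, −0.16 for Plod1, 0.99 for Npb, 0.23 for Mettl27, −0.48 for Rasd1 and 0.022 for Pcsk5. The mean of the cardiomyocyte markers was −0.28 there against 0.07 to 0.26 in the other DEHP cultures, and that of the fibroblast markers −0.30 against −0.13 to −0.04. The remaining case was the fibroblast mean of −0.07 in Control replicate 5, against 0.07 to 0.13 in the other controls.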

How the results depend on the processing

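The falls of Nr4a1, Nr4a2 and Nr4a3 passed under all 22 alternatives run on them. Fos, Jun, Junb, Egr1 and Egr3 lost their calls against a minimum fold of 1.2, Jun and Egr3 also at an adjusted p under 0.01, and Egr3 also in the 6 cases given above. That minimum left 3 members lower and 0 higher, 445 genes lower and 425 higher in all, and 1 AP-1 relative, 0 upstream factors, 0 MAP kinase genes, 4 other immediate-early genes and 6 targets. An adjusted p under 0.01 left 0 members higher, 1305 genes higher, 1 AP-1 relative and 8 other immediate-early genes. Quantile normalization, array weights and the replicate block each gave 2 EGR relatives and 4 MAP kinase genes, and leaving out Control 5 and DEHP 6 gave 2 EGR relatives. Fosl1 changed sign, to −0.024 after quantile normalization, −0.12 with array weights, −0.056 without Control 5 and DEHP 6, and between −0.13 and −0.02 without Control replicate 1 (−0.03), 3 (−0.03) or 6 (−0.02) or DEHP replicate 5 (−0.03) or 6 (−0.13), and leaving out 1 array in turn gave −0.13 to 0.085.

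With each array left out in turn, 6 to 7 members fell and 1 rose, EGR relatives passing numbered 1 to 2, and 1272 to 1756 genes fell. The differences between genes ran from 0.48 to 0.75 for Nr4a1 minus Nr4a2, 0.15 to 0.26 for Egr1 minus Egr3 and −0.37 to −0.12 for Nr4a2 minus Nr4a3. Without Control 5 and DEHP 6, Egr1 minus Egr3 was 0.25 and Nr4a2 minus Nr4a3 was −0.36, both with an adjusted exact p of 0.0119. As same-numbered pairs (replicate block), the differences of 0.58 for Jun minus Junb, 0.56 for Nr4a1 minus Nr4a2 and 0.36 for Nr4a1 minus Nr4a3 had an adjusted exact p of 0.0938, where a single pair of genes can reach 0.0312 at best. Same-numbered arrays correlated at 0.07 to 0.77 in their deviations, and 5 of 12 correlated best with their own number. The cause of these shifts was not tested.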
